A study of Bos taurus with 12 samples.

Results

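Transcripts of the genes that copy DNA and of the genes that divide the copied chromosomes were compared between chondrocytes of the hypertrophic zone (HZ) and chondrocytes of the reserve zone (RZ) of the cattle growth plate. The list held 51 genes, 25 of DNA replication and 26 of mitosis, and its members were all probe sets whose platform annotation gave 1 of these symbols alone. This found 55 probe sets, 31 for replication and 24 for mitosis, among the 24016 non-control probe sets of the arrays. They stood for 40 genes, 22 of replication and 18 of mitosis, out of 9155 genes named on the arrays. MCM2, GINS1, GINS2, CDKN3, MKI67, TOP2A, TTK, NUF2, KIF11, PRC1 and PTTG1 were not analysed here. The probe set for PTTG1 also carried the symbol of PCGF2 and was left out for that reason.

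The cells came from dairy cattle, male and below 10 months of age, and from the growth plate at the distal end of the metacarpus, a bone of the lower foreleg. Collagenase P released them from the cartilage over 4 hours, and they were then parted by centrifugation on density. HZ was the least dense fraction and RZ the most dense, so each zone is a density fraction of a digest and not cells cut out by position. There were 6 arrays of HZ and 6 of RZ in pairs numbered 1 to 6, with no treatment and no genetic change in either zone given in the labels. The labels do not say whether a pair came from 1 animal or from a pool, so the p-values rest on the spread over these pairs alone, and precision is limited by how few arrays there are.

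Before a cell copies its DNA, the licensing factors CDC6 and CDT1 load rings of MCM proteins at replication origins. E2F factors and cyclin E bring the cell into S phase, when the MCM ring joins CDC45 and the GINS complex as the working helicase, polymerases extend the strands on the sliding clamp PCNA, and ribonucleotide reductase and thymidylate synthase supply the building blocks. Cyclin B with CDK1 then starts mitosis, kinetochores and their checkpoint proteins hold the chromosomes until all are attached, and CDC20 with the anaphase-promoting complex lets them part. Transcripts of mitosis genes generally peak late in the cycle and those of replication genes earlier, near the start of S phase. In the growth plate the reserve zone holds slowly cycling precursors, the proliferative zone holds dividing columns, and hypertrophic cells have left the cycle and enlarge.

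Zone markers followed the labels, with 5 of 9 measured HZ markers higher in HZ (MMP13, IHH, PTH1R, MEF2C and ALPL) and 4 of 5 RZ markers lower (SFRP5, CLU, APOE and PTHLH), while 0 of 6 markers of all chondrocytes passed. The cells of the proliferative zone belong to neither fraction by the labels, and their share in each was not measured. A level here is a signal, the brightness of a probe set after the authors' scaling, recovered from deposited ratios, and a difference is log2(signal + 16) in HZ minus that in RZ, which understates the change of dim probe sets. The difference was tested with limma with the pair as a block. A gene rose or fell when its p, adjusted over all probe sets, was under 0.05. The SE of a difference is limma's moderated SE, which draws a gene's own spread over the pairs towards that of all probe sets. It can therefore be smaller or larger than the SE of that gene's pair differences alone. Where a gene had 2 probe sets, the brighter one stands for it. Of the 55 member probe sets, 12 were dim, with a mean signal under 50, against 35.2% of all probe sets. By the probe set that stands for a gene, 3 of the 40 genes were dim (CDC45, E2F1 and CENPA). The median signal of the 40 genes was 193.6, against 234.7 for all named genes.

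In HZ, 3 of the 40 genes fell, 0 rose and 37 did not pass. UHRF1, which recognises hemimethylated DNA behind the replication fork and brings in the maintenance DNA methyltransferase, fell by 1.48 ± 0.27 on the log2 scale (SE, n = 6 pairs). The spindle checkpoint kinase BUB1B fell by 0.82 ± 0.19 and the MCM ring subunit MCM3 by 0.74 ± 0.18. By probe set these were 3 of 55, a share of 5.45%, where 2.96% of all probe sets fell and 3.26% rose. By gene they were 7.5%, where 3.56% of all named genes fell.

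Below that threshold the members lay mostly on one side. An unadjusted p under 0.05 with HZ lower was found in 21 of 55 probe sets, or 38.2%, against 11.8% of all probe sets. With HZ higher it was found in 0 of 55, against 10.4% of all. HZ was lower in all 6 pairs in 13 of 55 probe sets, a share of 23.6% where all probe sets gave 7.15%, and higher in all 6 pairs in 0 of 55 where all gave 6.85%. The zones did not overlap, with HZ lower, in 2 probe sets (3.64%; all probe sets 1.21%), 1 of UHRF1 and the dimmer of TPX2, and with HZ higher in 0 (all probe sets 1.68%). The difference was below 0 in 32 of the 40 genes, or 80%, against 51.1% of all named genes. The median gene stood at -0.32, while the median of all probe sets was -0.01. Because these are bulk fractions, fewer dividing cells and less RNA of these genes per cell cannot be told apart.

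**Figure D1:**
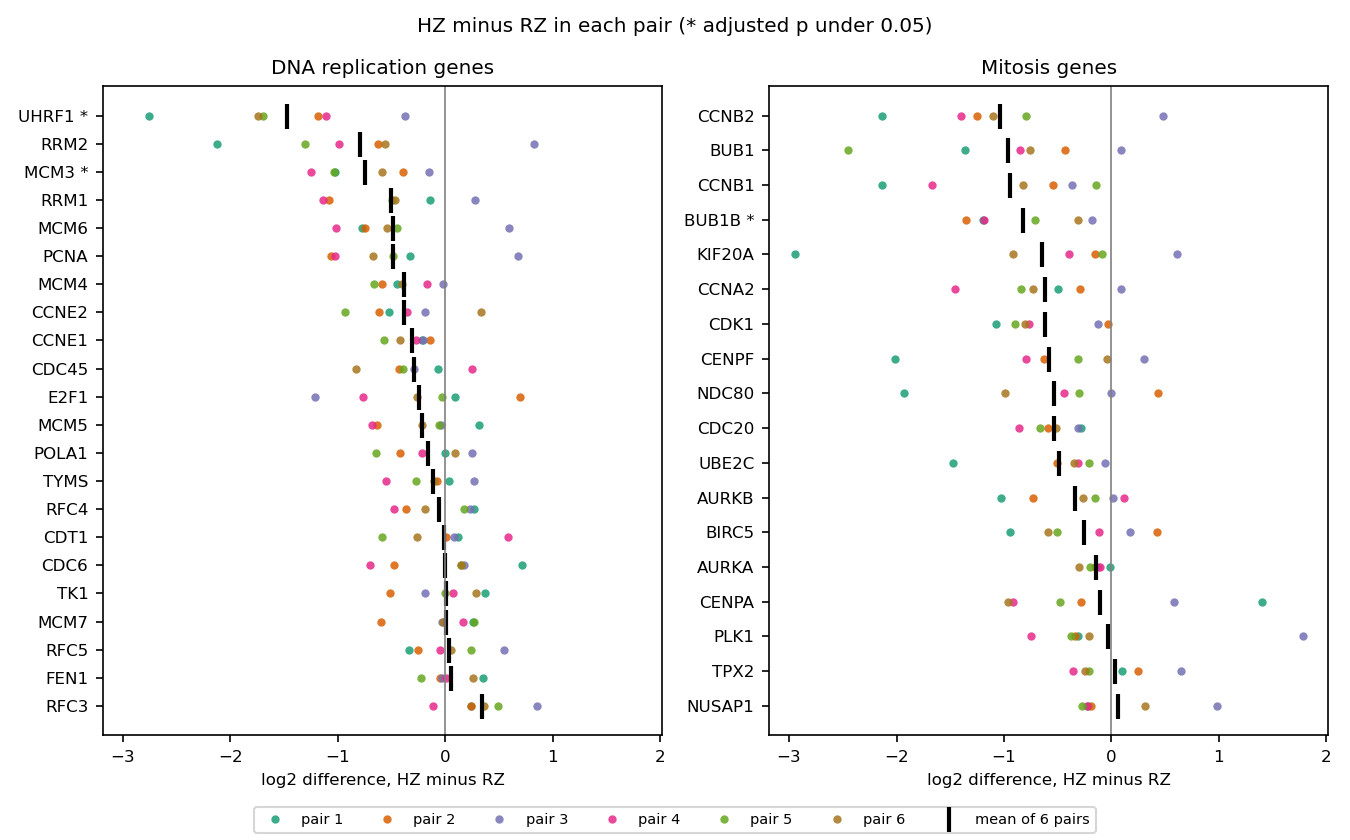
Log2 difference, HZ minus RZ, of the 40 genes in each of the 6 pairs (coloured points) and their mean (black bar), with DNA replication genes on the left and mitosis genes on the right. Most bars lie left of 0, and the 3 genes that fell are starred. The points of pair 3 lie at the right end in 21 of the 40 rows, or 52.5%, against 36.6% of all named genes.

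UHRF1 had signals of 32.0 at the lowest, 66.5 at the median and 124 at the highest in the 6 HZ arrays, against 164, 209 and 307 in the 6 RZ arrays. Every HZ array lay below every RZ array, and the nearest were those of pair 3. This is 2.78-fold lower in HZ (adjusted p = 0.0137), with differences from -2.75 in pair 1 to -0.37 in pair 3. The dimmer UHRF1 probe set gave -1.44 (adjusted p = 0.0525) and was lower in 5 of 6 pairs. The brighter one did not pass without pair 5 (-1.43, adjusted p = 0.0518), and with 1 added in place of 16 it stood at -1.70 (adjusted p = 0.0545).

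Of the 5 measured subunits of the MCM ring, 1 fell and 4 did not pass, with a median of -0.38. MCM3 signals were 119, 189.7 and 292 at the lowest, median and highest of the HZ arrays, against 275, 316 and 397 in RZ. Only the HZ array of pair 3 reached into the RZ range, and HZ was lower in all 6 pairs (adjusted p = 0.0404). MCM4 stood at -0.38 (adjusted p = 0.162) and was lower in all 6 pairs, MCM6 stood at -0.49 (adjusted p = 0.207) and MCM5 at -0.22, both lower in 5 of 6. MCM7, at 0.01, was lower in 3 of 6 pairs and did not follow the other subunits. MCM3 did not pass in 5 of the 6 fits with a pair left out, the exception being the fit without pair 3, and its dimmer probe set gave -0.59 (adjusted p = 0.356).

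CDC45, which joins the MCM ring to make the active helicase, was dim in both zones, with signals of 5.45, 9.07 and 11.2 at the lowest, median and highest in HZ, against 5.25, 14.3 and 28.2 in RZ. The ranges overlapped, and its difference was -0.29 (adjusted p = 0.341). The licensing factors showed no common direction. CDT1 had 63.5, 73.0 and 87.2 in HZ, against 41.5, 81.0 and 104 in RZ, so that the HZ values lay inside the RZ range, with a difference of -0.01 (adjusted p = 0.984). CDC6, which loads the ring together with CDT1, stood at 0.00 with its brighter probe set and at -0.54 (adjusted p = 0.158) with its dimmer one.

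All 3 measured regulators of S phase entry were below 0 and none passed. CCNE1, a cyclin E, had signals of 105, 146 and 182 at the lowest, median and highest in HZ, against 130.4, 168 and 249 in RZ. The ranges overlapped widely, yet HZ was lower in each of the 6 pairs, by -0.30 ± 0.14 (SE, adjusted p = 0.227). The second cyclin E, CCNE2, stood at -0.38, and E2F1, the transcription factor that switches on many replication genes, at -0.25 with a dim signal.

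None of the 4 clamp and clamp loader genes passed, and their signs differed. PCNA, the ring that holds polymerases on the strand, stood at -0.48 (adjusted p = 0.245), with 913, 1076 and 2334 as its lowest, median and highest HZ signals and 1457, 1636 and 2162 in RZ. Without HZ-3, which gave the 2334, every HZ value would lie below every RZ value. RFC3, a subunit of the loader that opens the clamp, had 667, 822 and 1203 in HZ, against 565, 684 and 835 in RZ. It was the only 1 of the 40 genes to be higher in HZ in 5 of 6 pairs, at 0.35 ± 0.16 (SE), and it did not pass (adjusted p = 0.238). The other loader subunits stayed near 0, RFC4 at -0.06 and RFC5 at 0.03.

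Of the 2 genes of strand synthesis, POLA1, the catalytic subunit of the polymerase that lays down primers, had signals of 95.6, 144 and 193 at the lowest, median and highest in HZ, against 133, 156 and 162 in RZ. HZ arrays lay on both sides of the narrow RZ range, and the difference was -0.16 (adjusted p = 0.631). FEN1, the nuclease that trims the ends of lagging-strand fragments, stood at 0.05.

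None of the 4 genes of nucleotide supply passed, and both subunits of ribonucleotide reductase lay further below 0 than the thymidine enzymes. RRM2, the small subunit of the reductase, had 69.3, 222 and 849 in HZ, against 291, 414 and 616 in RZ. The HZ arrays spanned far more than the RZ arrays, from the low of pair 1 to the high of pair 3, and the difference of -0.80 ± 0.31 (SE, lower in 5 of 6 pairs) did not pass (adjusted p = 0.170). RRM1, the large subunit, stood at -0.51 (adjusted p = 0.178), also lower in 5 of 6 pairs. Thymidylate synthase TYMS stood at -0.12 and thymidine kinase TK1 at 0.01, although the dimmer TYMS probe set gave -0.94 (adjusted p = 0.0898) and was lower in all 6 pairs.

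All 4 measured genes among the cyclins of mitosis and their kinase had an unadjusted p under 0.05 with HZ lower, and their median was -0.78, but none passed after adjustment. CCNB2, a B-type cyclin, had signals of 31.6, 51.3 and 198 at the lowest, median and highest in HZ, against 86.5, 153 and 216 in RZ. The 198 came from HZ-3, and apart from it and HZ-5 the HZ arrays lay below the RZ range. The difference was -1.04 ± 0.28 (SE, adjusted p = 0.0625). CCNB1, the other B-type cyclin, stood at -0.95 ± 0.26 (adjusted p = 0.0652) and was lower in all 6 pairs. CDK1, the kinase these cyclins activate, stood at -0.62 (adjusted p = 0.0755), again lower in all 6 pairs. CCNA2, cyclin A, which acts from S phase into mitosis, stood at -0.62 (adjusted p = 0.101).

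At the kinetochore 1 of 5 measured genes fell and all 5 were below 0, with a median of -0.58. BUB1B signals were 30.8, 51.5 and 121 at the lowest, median and highest in HZ, against 72.7, 117 and 139 in RZ. Apart from HZ-3 the HZ arrays lay below all RZ arrays, and HZ was lower in all 6 pairs (1.77-fold lower, adjusted p = 0.0373). BUB1, the partner kinase that recruits checkpoint proteins, stood at -0.96 ± 0.29 (SE, adjusted p = 0.0803), with -2.45 in pair 5 and 0.09 in pair 3. CENPF, a protein of the outer kinetochore, stood at -0.58, and NDC80, which binds spindle microtubules, at -0.54. The centromeric histone CENPA stood at -0.11, with a dim signal and values from -0.96 to 1.40 over the pairs. BUB1B kept its call only without pair 3 or pair 6 among the fits with 1 pair left out, and its adjusted p reached 0.114 without pair 1.

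The Aurora and Polo kinases and their partner showed small differences, with a median of -0.20 and no gene past the threshold. AURKB, the kinase of the chromosomal passenger complex, had signals of 116, 198 and 257 at the lowest, median and highest in HZ, against 200.2, 231 and 334 in RZ. Of the HZ arrays, 4 lay below all RZ arrays and 2 among them, and the difference was -0.34 (adjusted p = 0.314). BIRC5, survivin, which belongs to the same complex, stood at -0.26. AURKA, which acts at the spindle poles, stood at -0.15 and was lower in all 6 pairs by at most 0.30. PLK1, a Polo kinase, stood at -0.03, with 1.78 in pair 3 and values from -0.75 to -0.21 in the other pairs.

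The spindle genes had no common direction. KIF20A, a kinesin needed for cytokinesis, had 1.87, 72.0 and 146 in HZ, against 85.3, 95.4 and 136 in RZ. The 1.87 came from HZ-1, where NDC80 was also at its lowest, and the difference of -0.65 ± 0.38 (SE) was far from passing (adjusted p = 0.363). The microtubule proteins NUSAP1 and TPX2 stood at 0.06 and 0.03 with their brighter or only probe sets. The dimmer TPX2 probe set stood at -0.61 (adjusted p = 0.0691), with HZ signals of 51.4, 86.0 and 99.5, against 102, 116 and 169.6 in RZ, and no overlap. The 2 TPX2 probe sets therefore gave different pictures of the gene.

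Both measured genes of anaphase control were lower in HZ in all 6 pairs without passing. CDC20, which activates the anaphase-promoting complex, had signals of 186, 269.7 and 418 at the lowest, median and highest in HZ, against 288, 445 and 605 in RZ. The ranges overlapped because the pairs differed in level, while within pairs the difference was even, from -0.86 to -0.29. Its mean was -0.54 ± 0.14 (SE, adjusted p = 0.0573), the smallest adjusted p of the mitosis genes after BUB1B. UBE2C, the ubiquitin-conjugating enzyme of the complex, stood at -0.48 (adjusted p = 0.180), with -1.47 in pair 1.

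**Figure D2:**
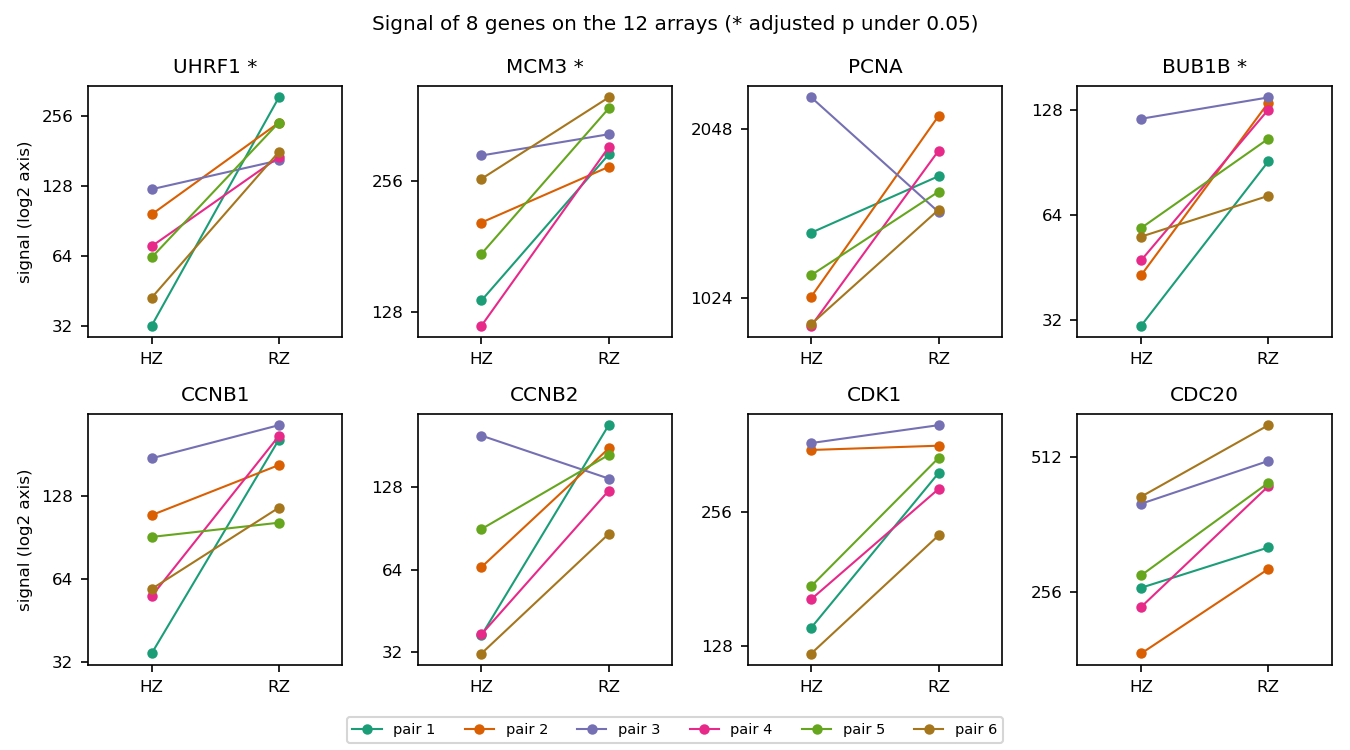
Signal (log2 axis) of 8 genes in HZ and RZ, with lines joining the arrays of a pair and stars at the 3 genes that fell. Lines run upward to RZ in all pairs for 6 of the genes, and the line of pair 3 alone runs downward for PCNA and CCNB2.

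Second probe sets bear on how firmly a gene can be read. Of the 40 genes, 25 had 1 probe set and 15 had 2, and the 2 differed in sign in 3 genes. These were CDC6, TPX2 and CENPF, whose brighter and dimmer probe sets gave -0.58 and 0.41. For TYMS and POLA1 the dimmer probe set lay further below 0 than the brighter one, with POLA1 at -0.60 against -0.16. AURKB did the same, with -0.68 against -0.34. Averaging the probe sets of a gene in place of taking the brighter one, with p adjusted over genes, gave 7 genes that fell. In that setting 5.35% of all named genes fell. Added to the 3 were CCNB1, CCNB2, CDK1 and CDC20, which have 1 probe set each, so averaging left their values unchanged. What changed for them was the fit and adjustment over 9155 genes in place of 24016 probe sets. Testing only probe sets with a mean signal of at least 50 left 37 of the 40 genes, of which 8 fell, the same 7 and BUB1. In that setting 7.76% of the 15567 probe sets tested fell.

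Replication and mitosis genes were also read apart, and no test was made of the difference between them. Of the 22 replication genes 2 fell, 6 had an unadjusted p under 0.05 with HZ lower, 4 were lower in all 6 pairs and 16 were below 0. Of the 18 mitosis genes 1 fell, 8 had such a p, 6 were lower in all 6 pairs and 16 were below 0. Over all named genes 3.56% fell, 12.6% had such a p, 8.27% were lower in all 6 pairs and 51.1% were below 0. The median difference was -0.23 for replication and -0.54 for mitosis. The medians lay furthest apart in pair 1, at -0.04 for replication and -1.05 for mitosis. Without pair 1 they were -0.32 for replication and -0.29 for mitosis, so that the order turned by a small margin. In pairs 3 to 6, also without pair 1, they were -0.27 for replication and -0.35 for mitosis, in the first order.

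By pair, mitosis lay further below 0 than replication in pairs 4 and 6 as well, at -0.76 against -0.41 and at -0.55 against -0.24. The order was the other way in pair 2, with -0.31 for mitosis and -0.45 for replication, and in pair 5, with -0.34 for mitosis and -0.42 for replication. In pair 3 both were above 0, at 0.09 for mitosis and 0.03 for replication, as was the median of all probe sets in that pair at 0.10. Members lower in HZ numbered 28 of 40 in pair 1, 34 in pair 2, 18 in pair 3, 34 in pair 4, 35 in pair 5 and 32 in pair 6. The shares of all probe sets lower in HZ in pairs 1 to 6 were 48.93%, 57.54%, 42.34%, 55.15%, 49.74% and 52.68%. Most members were therefore lower in 5 pairs, while in pair 3 fewer were lower than not, as was also so of all probe sets.

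**Figure D3:**
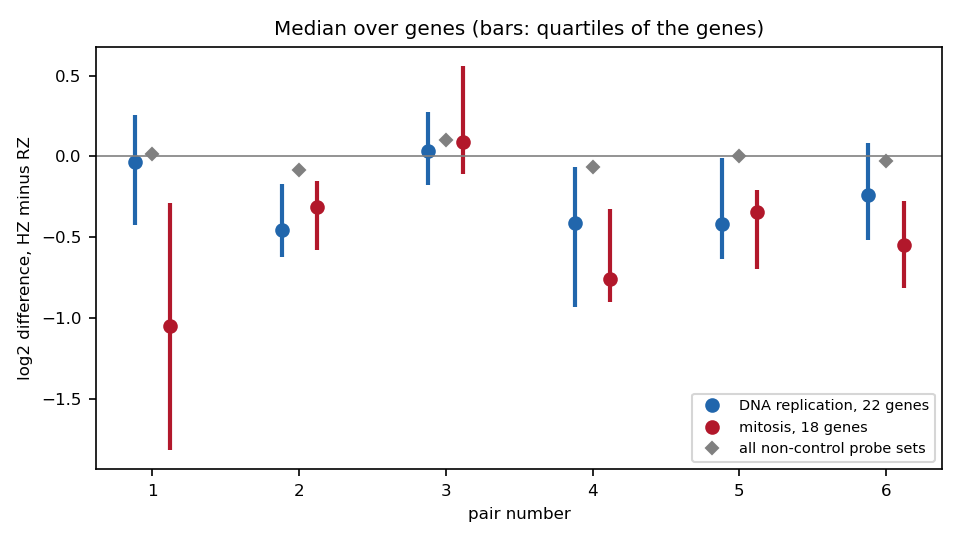
Median log2 difference, HZ minus RZ, in each pair for the 22 replication genes (blue), the 18 mitosis genes (red) and all non-control probe sets (grey), with bars from the lower to the upper quartile of the genes. Both medians lie below the grey mark in all 6 pairs, and the largest gap between them is that of pair 1.

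The arrays spread more in HZ than in RZ. The SD of log2 signal across the 6 arrays was larger in HZ in 31 of 40 genes, or 77.5%, against 64.1% of all named genes. For mitosis genes it was larger in 16 of 18, with a median SD of 0.60 in HZ and 0.32 in RZ. Relative to each gene's mean, the median level of the mitosis genes on HZ-1 to HZ-6 was -0.73, -0.01, 0.52, -0.55, -0.19 and -0.39. On RZ-1 to RZ-6 it was 0.29, 0.24, 0.34, 0.18, 0.30 and 0.09, a narrow band that HZ-3 alone exceeded. For replication genes the HZ values were -0.10, -0.21, 0.19, -0.46, -0.17 and 0.02, against 0.04, 0.28, 0.15, -0.06, 0.19 and 0.15 in RZ.

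HZ-3 thus had the highest mitosis level of all 12 arrays. It was the highest HZ array in 26 of 40 genes, or 65%, where the same array was highest in 31.3% of all named genes. Leaving pair 3 out gave 7 genes that fell, with PCNA, MCM6, RRM2 and CCNB2 added, and in that fit 3.73% of all probe sets fell, against 2.96% with all pairs. Leaving pair 5 out gave 0 by limma, where 0.929% of all probe sets fell. In that fit 10 of the 40 genes had an unadjusted p under 0.05, each lower in HZ, against 9.73% of all probe sets.

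**Figure D4:**
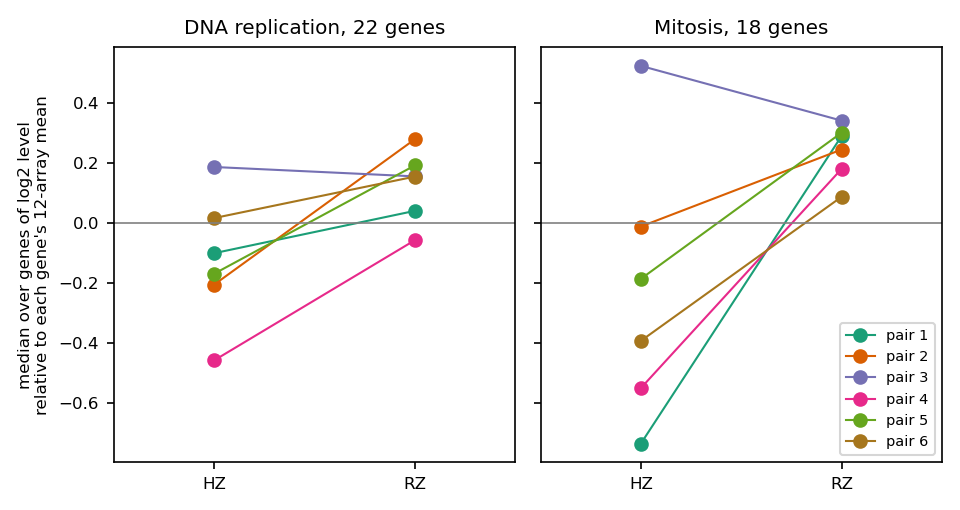
Median over genes of the log2 level on each array relative to each gene's mean over the 12 arrays, for replication genes (left) and mitosis genes (right), with lines joining the arrays of a pair. Mitosis levels span -0.73 to 0.52 in HZ and 0.09 to 0.34 in RZ.

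Pairs 1 and 2 differed from pairs 3 to 6 in the smallest step of their deposited values, 0.0237 to 0.0318 against 0.00884 to 0.0110, and no label names a batch. In pairs 1 and 2 the medians were -0.20 for replication and -0.65 for mitosis, and in pairs 3 to 6 they were -0.27 for replication and -0.35 for mitosis. In pairs 1 and 2 alone 0 members passed in limma, but neither did any of the 24016 probe sets (0%), so that this count says nothing particular to the members. In pairs 3 to 6 alone 0 members passed, where 0.325% of all probe sets fell. An unadjusted p under 0.05 with HZ lower was found in 10 of the 40 genes in pairs 1 and 2, against 7.15% of all probe sets. In pairs 3 to 6 it was found in 9 of the 40, against 7.64% of all. A test of the difference between the sets gave an unadjusted p under 0.05 in 4 of 55 probe sets, or 7.27%, against 5.03% of all probe sets. After adjustment it gave 0 of 55, against 0.00833% of all. The 4 were AURKB (-0.88 in pairs 1 and 2, -0.07 in pairs 3 to 6), CENPF (-1.32 and -0.21), E2F1 (0.40 and -0.57) and the dimmer CDC6 probe set.

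A ratio of actin probes near the end of the transcript over those near its start, a sign of RNA degradation or short labelled copies, was higher in HZ than in RZ in 5 of 6 pairs. Its log2 values on HZ-1 to HZ-6 were 3.38, 2.27, 3.52, 3.96, 2.39 and 2.68, against 1.83, 2.31, 2.87, 2.65, 1.77 and 2.60 on RZ-1 to RZ-6. For GAPDH the ratio stood out on HZ-3 and HZ-4, at 1.46 and 1.21, against 0.505 or less on each of the other arrays. Of 40 members 18 were lower in pair 3 and 34 in pair 4, against 42.34% and 55.15% of all probe sets. The actin gap, HZ minus RZ, was largest in pairs 1 and 4, at 1.55 and 1.32, with mitosis medians of -1.05 and -0.76. In pairs 3 and 5 the gap was 0.65 and 0.61, with mitosis medians of 0.09 and -0.34. In pairs 2 and 6 it was -0.04 and 0.09, with mitosis medians of -0.31 and -0.55. Replication medians in pairs 1 to 6 were -0.04, -0.45, 0.03, -0.41, -0.42 and -0.24, and did not follow the order of the gap. Without pairs 3 and 4 the medians were -0.21 for replication and -0.61 for mitosis. UHRF1 alone of the members passed in that fit (-1.84, adjusted p = 0.0498), where 0.2% of all probe sets fell. The part of RNA quality in the members' differences was not tested.

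Markers of other cells that could divide in such a digest were also read. Of 9 measured erythroid genes 0 passed, 7 had a mean signal under 50, and their summed signal was 355 to 741 in HZ and 344 to 705 in RZ. Of 16 white blood cell genes C1QB, C1QA and CSF1R were higher and CD2 and PTPRC lower, with sums of 1747 to 3365 in HZ and 1660 to 5453 in RZ. Of 7 endothelial genes PECAM1 was lower, and sums were 200.1 to 570.2 in HZ and 531 to 792 in RZ. Of 7 perichondrial fibroblast genes PDGFRA was lower (sums 13730 to 18700 in HZ, 15860 to 31950 in RZ). Of 5 osteoblast genes DMP1 passed and was higher, while the other 4 were below 0 without passing and the list's median was -0.99 (sums 1366 to 4805 in HZ, 1487 to 17920 in RZ). Among those 4, COL1A2 stood at -1.12 (adjusted p = 0.0516) and was lower in all 6 pairs, COL1A1 stood at -1.05 and SOST at -0.56, each of the 3 with an unadjusted p under 0.05, and COL1A1 and COL1A2 are also in the fibroblast list. Osteoblast sums were lower in HZ in 6 of 6 pairs, pair 3 included. Endothelial and fibroblast sums were lower in HZ in 5 of 6 pairs, with pair 3 the exception in both. White blood cell sums were lower in 4 pairs and erythroid sums in 2. Their part in the members' differences was not tested.

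Further genes of both processes were read from lists that hold no member. Of 33 measured other replication genes 1 fell, 0 rose and 32 did not pass, with a median of -0.12. Over all named genes 3.56% fell and 4.17% rose, so 1 of 33 does not set this list apart. The gene that fell was CHAF1B, a subunit of the factor that places histones on new DNA, at -1.01 ± 0.17 (SE, adjusted p = 0.0102), lower in all 6 pairs. POLE2, a subunit of the leading-strand polymerase, stood at -0.59 and SLBP, which binds histone messenger RNA in S phase, at -0.61. RPA1, which coats single-stranded DNA, was higher in HZ in all 6 pairs at 0.54 (adjusted p = 0.0820).

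Of 38 measured other mitosis genes 5 fell, 1 rose and 32 did not pass, with a median of -0.32, where 3.56% of all named genes fell and 4.17% rose. SKA1, which keeps kinetochores on microtubule ends, fell by 1.14, and CDCA3, which helps degrade an inhibitor of mitosis, by 0.98. FBXO5, an inhibitor of the anaphase-promoting complex, fell by 0.64. The condensin subunits NCAPG and SMC4, which compact chromosomes, fell by 0.68 and 0.65. With its probe sets averaged, SMC4 stood at -0.42 and did not pass (adjusted p = 0.15). CDC25C, the phosphatase that activates CDK1, rose by 0.67 ± 0.17 (SE, adjusted p = 0.0476), in all 6 pairs, where CDK1 itself stood at -0.62. Its signal was dim, and its difference depended on the added constant. It stood at 0.98 with 1 added (adjusted p = 0.0794) and at 0.34 with 64 added (adjusted p = 0.0566), and passed in neither. With 1 pair left out, the call was lost in 6 of the 6 fits for CDC25C, in 5 for FBXO5, NCAPG and SMC4 and in 4 for SKA1 and CDCA3, as against 0 for CHAF1B.

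Genes that govern entry into the cycle moved both ways. Of 27 measured, 2 rose, 2 fell and 23 did not pass, with a median of 0.04, where 4.17% of all named genes rose and 3.56% fell. GADD45A, a growth arrest protein induced by DNA damage, rose by 1.28 ± 0.17 (SE, adjusted p = 0.00495) and the D-type cyclin CCND3 by 1.20 ± 0.18 (adjusted p = 0.00771). Another D-type cyclin, CCND2, fell by 1.02 ± 0.18 (adjusted p = 0.0137) and E2F6, a repressing E2F factor, by 0.70 ± 0.16 (adjusted p = 0.0301). Each of the 4 had the same sign in all 6 pairs, but E2F6 lost its call in 5 of the 6 fits with 1 pair left out, CCND2 in 1 (without pair 5), and GADD45A and CCND3 in 0. CCND3 signals averaged 1058 ± 326 in HZ and 439 ± 63.6 in RZ (SD, n = 6 each), and CCND2 signals 683 ± 292 in HZ and 1446 ± 685 in RZ.

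**Figure D5:**
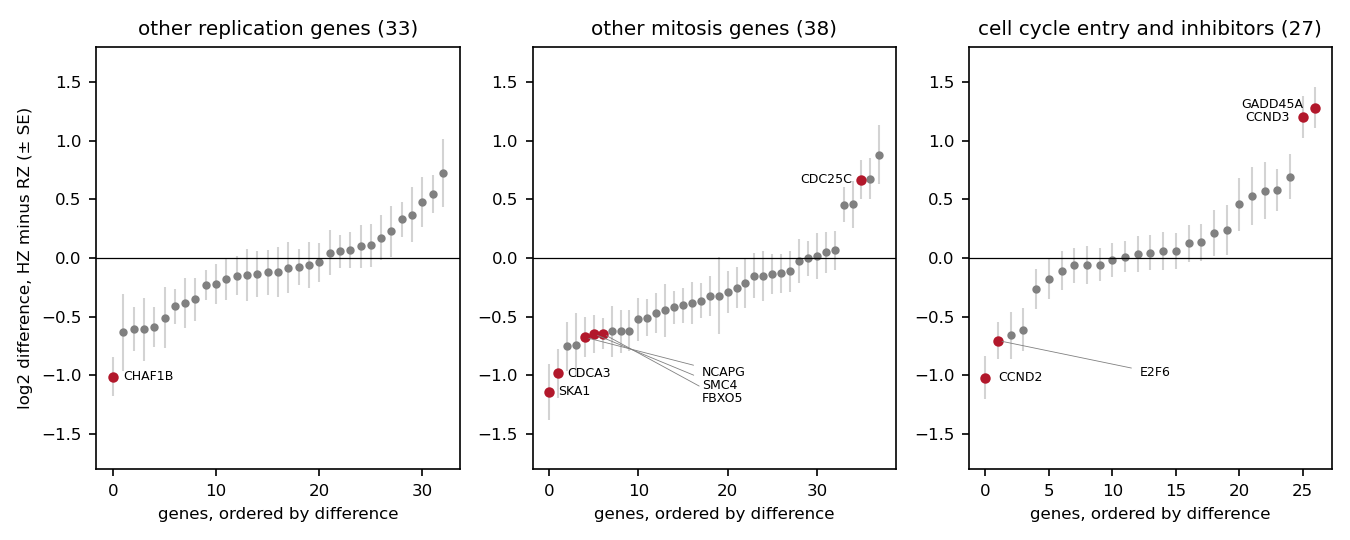
Log2 difference, HZ minus RZ, with its SE (grey bar) for further replication genes, further mitosis genes and genes of cell cycle entry and inhibition, each ordered by difference, with genes that passed in red. Among replication genes 1 of 33 passed, among mitosis genes 6 of 38, and among entry genes 4 of 27, of which CCND3 and GADD45A lie highest. Over all named genes 3.56% fell and 4.17% rose.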

How the data were processed

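RNA of 6 HZ and 6 RZ fractions was measured on 12 one-colour arrays, grouped by zone and pair number as titled. Per the labels' protocols, RNA was extracted with RNA STAT-60, checked on a Bioanalyzer and labelled with a MessageAmp II kit. How probes were summarised and arrays normalized is not given in the sources used here. The authors deposited linear ratios of each probe set to its median over the arrays, or to 1 fixed divisor for 2227 dim probe sets. From the steps in which these deposited ratios fall, a signal was recovered for all 24128 probe sets (values within 0.01 step plus 3e-07 of the steps, at most 0.08, of whole multiples). Its unit assumes that 1 step is 0.1, which no source states. The design had foreseen this recovery. Array medians were 96.7, and no further normalization was made.

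log2(signal + 16) of 24016 non-control probe sets was fitted in R 4.3.3 by limma 3.58.1 (lmFit, then eBayes, with a fixed block for pair and 5 residual degrees of freedom) and adjusted by Benjamini-Hochberg. A gene was its brightest probe set by mean log2 signal. Symbols came from the platform annotation, with 13292 probe sets of 1 symbol, 86 of several and 10638 of none. The series design pairs the arrays, and same-numbered arrays deviated together (correlations 0.124 to 0.447). The scripts were tested on simulated data.

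Members and lists were chosen with earlier results of these data known. Every measured member is named, with signals for those past the threshold and for the member of smallest p in each role, and up to 4 genes of smallest p of each other cell cycle list (all those past the threshold here). Markers of the zones, chondrocytes, erythroid, white blood, endothelial, osteoblast and perichondrial cells were also read. Medians over genes carry no test. Alternatives were the fit with no pair block, other added constants, the deposited ratio, quantile normalization, a signal minimum of 50, averaged probe sets, pairs left out and sets of pairs. Promoter sequences were not used here.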

Additional observations from a re-analysis of the deposited data

Results flagged for a closer look

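In each of the 80 groups of 6 arrays (40 genes in 2 zones), the highest or lowest array was set against the rest of its zone, and 8 stood apart by more than Dixon's critical value, where chance gives about 1 in 20 groups. In HZ, MCM6 had a signal of 1623 on HZ-3, where the other HZ arrays lay between 789 and 1001. E2F1 had 53.5 on HZ-2, against 8.16 to 17.1 on the other HZ arrays. KIF20A had 1.87 on HZ-1, against 63.98 to 145.6 on the others. In RZ, CCNE2 had 213 on RZ-6, where the other RZ arrays lay between 443 and 605, and CENPF had 114 on the same array, against 198 to 260.5. TPX2 had 196 on RZ-4, against 255 to 287 on the others, and CCNA2 had 120.3 on that array, against 84.7 to 96.5. RRM1 had 367 on RZ-1, where the other RZ arrays lay between 467 and 516.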

How the results depend on the processing

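Of the 40 genes, 3 fell and 0 rose. With the pair numbers left out of the fit (no replicate block) 1 fell (UHRF1). With 1 added in place of 16 it was 0, with log2(ratio + 0.1) 0 and with 64 added 5. A signal minimum of 50 left 37 of the genes, of which 8 fell. With averaged probe sets and p adjusted over genes 7 fell (490 of all 9155 named genes). Leaving out 1 pair in turn gave 0 (without pair 5) to 7 (without pair 3), pairs 1 and 2 alone 0, pairs 3 to 6 alone 0, and leaving out pairs 3 and 4 gave 1. Where limma gave 0, between 9 and 11 members had an unadjusted p under 0.05, and 0 members rose under any of these settings. Over all probe sets, 711 fell and 782 rose. The same counts were 326 and 505 with no replicate block, 215 and 367 with 1 added, 225 and 369 with the ratio, 78 and 258 in pairs 3 to 6, 48 and 91 without pairs 3 and 4, and 0 and 0 in pairs 1 and 2 (1718 and 1213 at an unadjusted p under 0.05). With 64 added 1120 fell, with the signal minimum 1208. Leaving out 1 pair gave 223 to 895 falls and 336 to 649 rises. The causes were not tested, beyond the smaller number of pairs or probe sets in some fits. Both medians kept their sign and stayed within 1 SD over pairs. With quantile normalization the 3 genes kept their calls and 1 further gene passed. At an unadjusted p under 0.05 in that setting, 16 of the 40 genes were lower in HZ and 1 higher. Of the 24016 probe sets, 2857 were lower and 2780 higher by the same measure.

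Among the other cell cycle genes, tried under the same settings after the data were seen, 0 of 14 turned sign. Signs of members turned only in genes that had not passed. CDC6 gave -0.026 with 1 added, -0.011 with the ratio, -0.016 with quantile normalization, -0.27 with averaged probe sets and -0.056 in pairs 3 to 6. TPX2 gave -0.29 with averaged probe sets, -0.043 in pairs 3 to 6 and -0.027 without pairs 3 and 4. In pairs 1 and 2, RFC5 gave -0.29, MCM7 -0.17, CDT1 0.064, E2F1 0.40, TK1 -0.067, CENPA 0.56 and NUSAP1 -0.20, and PLK1 gave 0.11 in pairs 3 to 6. Without pairs 3 and 4, RFC5 gave -0.074, MCM7 -0.022, E2F1 0.13 and NUSAP1 -0.093. With 1 pair left out, the range was -0.14 to 0.14 for CDC6, -0.13 to 0.11 for CDT1, -0.41 to 0.061 for CENPA, -0.0082 to 0.11 for FEN1, -0.044 to 0.13 for MCM7, -0.12 to 0.13 for NUSAP1, -0.39 to 0.11 for PLK1, -0.13 to 0.024 for RFC4, -0.070 to 0.11 for RFC5, -0.068 to 0.11 for TK1 and -0.094 to 0.11 for TPX2. Dim signals, with 12 of 55 probe sets under a mean of 50, depend on the added constant.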
